A study of Mus musculus with 48 samples.

Results

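The liver changes which mRNAs it holds over the day, and the 12 wild-type total RNA libraries described here, of 48 in the series, follow that change at 2 h steps from ZT0 to ZT22. Zeitgeber time (ZT) is counted in hours from lights on. The members were chosen by label: every library of wild-type total liver RNA, read through the gene table of exon expression. Each library was made from a pool of liver RNA of 2 C57BL/6 mice of 14 weeks, kept in 12 h of light and 12 h of dark with food given only in the dark during the week before sampling. The column headers mark the ZT14 to ZT22 libraries as fed. Used for comparison were 12 libraries of nuclear RNA from wild-type livers and 12 of total RNA from nono-/- livers of the same strain, age, lighting and feeding, which lack the RNA-binding protein NONO; 12 nuclear libraries of nono-/- liver were not analysed here. Ribosomal RNA was depleted and the libraries were stranded, so unspliced and non-polyadenylated RNA is also present.

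Nearly every mammalian cell holds a clock in which the transcription factors CLOCK and BMAL1 (gene Arntl) bind E-box sequences and switch on the Per and Cry genes, whose proteins return to repress them. The same pair drives Nr1d1 and Nr1d2, which encode the repressors REV-ERB alpha and beta, and these compete with ROR activators at a sequence called RORE in Arntl, Cry1 and Nfil3. DBP, TEF and HLF activate D-box genes that NFIL3 represses. In the liver, feeding adds a second set of daily signals, through insulin, the lipid and sterol factors SREBP-1 and SREBP-2, body temperature and glucocorticoids.

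Each time point is a lone pool, and 1 day was sampled. A p-value therefore weighs the 24 h curve against the scatter of the 12 pools around it, which leaves 9 residual degrees of freedom, and a value repeated on a second day was not measured. The 7 libraries of ZT0 to ZT12 held about 19100000 to 23900000 reads and the 5 of ZT14 to ZT22 about 11800000 to 15700000, so depth and the fed dark phase cannot be told apart. The ZT8 library stood apart: over 11273 genes its deviation from each gene's mean correlated with the GC content of the transcript at Spearman rho -0.734, against 0.417 to 0.586 at ZT18, ZT20 and ZT22 and -0.282 to 0.114 in the other 8, a description across genes, which are not independent replicates. ZT8 also had the lowest share of reads in exons, 64.3%, and ZT22 the highest, 73.6%. Results are therefore given beside 3 alternatives chosen after seeing the data: each library's GC trend taken out, ZT8 and ZT22 left out, and depth as a term of the fit. Hepatocyte markers dominated every library, with 9 genes including Alb summing to between 32332 and 51094 FPKM (fragments per kilobase of exon, scaled to the mapped reads of the library), and the pancreatic genes Prss1, Amy2a5, Pnlip and Cpa1 were at 0 in all 12. Because whole liver was measured, fewer cells of a type and less RNA per cell cannot be told apart.

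A 24 h rhythm was found for 3174 of the 11356 genes tested, which is 27.9% of them. Genes averaging 0.5 FPKM or more were tested with limma, as a cosine and a sine of 24 h on log2(FPKM + 0.1), and called at a Benjamini-Hochberg adjusted p under 0.05. Sizes are given as the fitted fold between peak and trough of the curve, and peak times with their standard error (SE). The median fold of the called genes was 1.80, against 1.38 over all tested genes. A fold of at least 2 was reached by 1110 called genes, 9.77% of those tested, and 143 reached 4-fold, 44 reached 8-fold and 15 reached 16-fold. At the other end, 575 called genes stayed under 1.5-fold. The share called rose with level, from 15.4% of genes of 0.5 to 1 FPKM to 34.0% of genes of 10 to 50 FPKM, and was 27.0% at 50 FPKM or more.

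Peaks were not spread evenly. Between ZT5 and ZT9 lay 891 peaks (28.1% of the called genes), and between ZT17 and ZT21 lay 961 (30.3%), while ZT0 to ZT4 held 211 and ZT11 to ZT15 held 267. By 6 h window, 449 called genes peaked in ZT0 to 6, 1054 in ZT6 to 12, 591 in ZT12 to 18 and 1080 in ZT18 to 24. In the main fit the genes of the last window had the largest folds, with a median of 1.94 against 1.68 in ZT6 to 12, and 62 of the 143 genes of at least 4-fold. The concentration moved with the libraries that stood apart. The transcripts of genes peaking in ZT6 to 12 had a median GC content of 44.3% and those of ZT18 to 24 of 54.0%, against 49.1% over the tested genes, and 1023 of the 3174 called genes had their lowest value at ZT8. With the GC trend taken out, 3669 genes were called (32.5% of those tested), 2580 of them shared, and the ZT5 to ZT9 and ZT17 to ZT21 shares were 24.3% and 24.9%. The large folds of the last window also depended on that trend. With it out, genes of at least 2-fold fell from 118 to 56 between ZT19 and ZT20, and from 80 to 66 between ZT6 and ZT7. Without ZT8 and ZT22, 2148 genes were called (18.9%), 1965 of them shared, and the windows held 405, 564, 583 and 596. With depth as a term, 857 were called (7.55% of those tested), 832 of them shared. The shares to set beside list counts under these 3 alternatives are thus 32.5%, 18.9% and 7.55%, in place of 27.9%. Large folds were kept more often: of the 143 genes of at least 4-fold, 138 were still called with the GC trend out, 129 without ZT8 and ZT22 and 104 with depth as a term. Peak times moved little, and between 99.5% and 100% of the called genes peaked within 3 h of their main time under each of the 3.

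**Figure D1:**
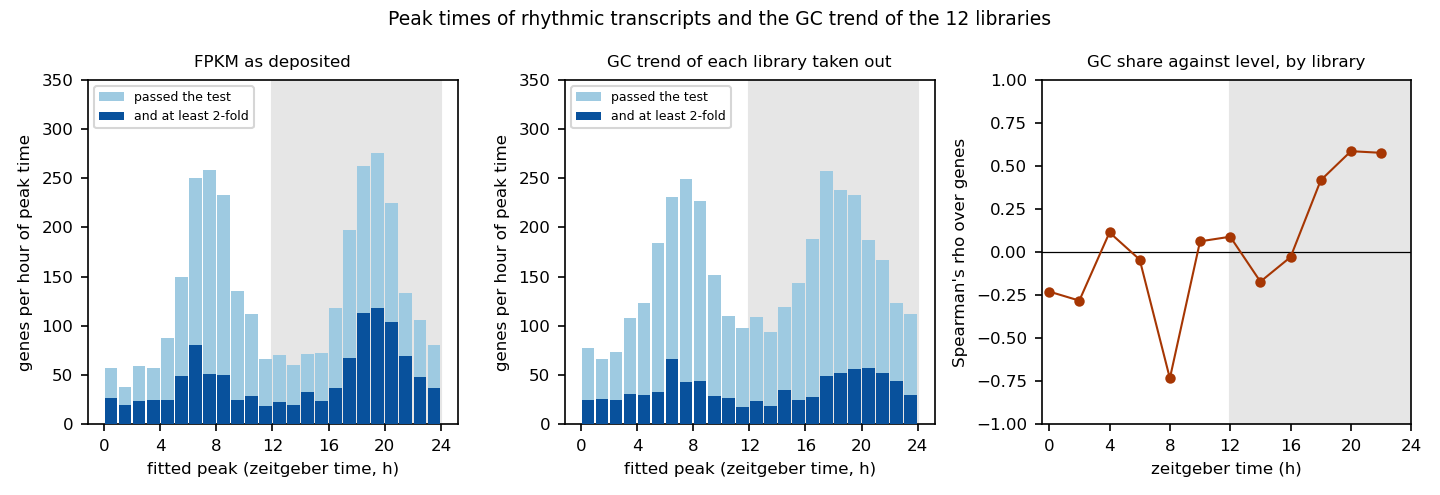
Number of called genes by hour of fitted peak (x axis, ZT in hours) in wild-type total RNA, with the values as deposited (left) and with each library's GC trend taken out (middle), in light blue for genes that passed the test and dark blue for those of at least 2-fold. The right panel gives, for each library, Spearman's rho over genes between transcript GC content and deviation from the gene's mean, lowest at ZT8 (-0.734); the grey area is the dark phase.

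The clock genes were among those with the largest folds, and 16 of the 17 that could be tested were called, against 27.9% of all tested genes. Promoters of clock genes with a clock motif are printed here so that the letters can be set beside their peak times. The RefSeq windows run from 250 bases before to 50 bases after each transcription start in GRCm38.p6 (mm10), are written 5′ to 3′ on the gene's own strand, and carry their motif in capitals. Capitals mark the E-box CACGTG in Ciart, Cry1, Per1 and Tef, the D-box TTANNTAA in Tef and Per3, and the RORE letters TAGGTCA in Nfil3 and Arntl, each searched on both strands.
Ciart (chr3:95882179-95882478, minus strand): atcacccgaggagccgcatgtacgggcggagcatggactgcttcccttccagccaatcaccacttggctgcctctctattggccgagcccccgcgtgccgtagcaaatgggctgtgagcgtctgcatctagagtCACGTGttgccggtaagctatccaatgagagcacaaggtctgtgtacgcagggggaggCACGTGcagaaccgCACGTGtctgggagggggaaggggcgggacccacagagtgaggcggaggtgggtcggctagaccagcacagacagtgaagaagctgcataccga
Tef (chr15:81802423-81802722, plus strand): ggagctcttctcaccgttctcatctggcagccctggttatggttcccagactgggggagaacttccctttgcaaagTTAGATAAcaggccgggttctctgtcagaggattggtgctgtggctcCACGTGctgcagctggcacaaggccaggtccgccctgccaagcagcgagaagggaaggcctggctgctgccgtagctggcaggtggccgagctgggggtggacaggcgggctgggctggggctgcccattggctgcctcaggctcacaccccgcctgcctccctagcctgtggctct
Per3 (chr4:151044616-151044915, minus strand): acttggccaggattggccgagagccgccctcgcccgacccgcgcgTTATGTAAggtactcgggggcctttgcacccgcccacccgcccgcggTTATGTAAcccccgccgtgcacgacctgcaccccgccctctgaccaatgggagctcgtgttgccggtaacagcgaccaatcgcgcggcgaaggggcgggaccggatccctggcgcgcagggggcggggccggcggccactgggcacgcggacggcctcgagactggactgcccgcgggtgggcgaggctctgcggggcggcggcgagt
Per1 (chr11:69098699-69098998, plus strand): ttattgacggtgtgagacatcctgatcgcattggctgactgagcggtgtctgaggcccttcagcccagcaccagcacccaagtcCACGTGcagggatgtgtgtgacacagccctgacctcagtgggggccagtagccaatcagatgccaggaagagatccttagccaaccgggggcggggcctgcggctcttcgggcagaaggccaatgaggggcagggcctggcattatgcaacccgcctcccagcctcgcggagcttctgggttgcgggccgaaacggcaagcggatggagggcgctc
Cry1 (chr10:85185005-85185304, minus strand): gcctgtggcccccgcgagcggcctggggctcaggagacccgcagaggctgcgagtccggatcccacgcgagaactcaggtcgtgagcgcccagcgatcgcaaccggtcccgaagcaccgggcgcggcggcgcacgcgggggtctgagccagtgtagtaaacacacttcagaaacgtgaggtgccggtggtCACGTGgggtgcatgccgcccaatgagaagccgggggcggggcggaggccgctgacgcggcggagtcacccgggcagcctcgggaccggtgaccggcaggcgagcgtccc
Nfil3 (chr13:52980990-52981289, minus strand): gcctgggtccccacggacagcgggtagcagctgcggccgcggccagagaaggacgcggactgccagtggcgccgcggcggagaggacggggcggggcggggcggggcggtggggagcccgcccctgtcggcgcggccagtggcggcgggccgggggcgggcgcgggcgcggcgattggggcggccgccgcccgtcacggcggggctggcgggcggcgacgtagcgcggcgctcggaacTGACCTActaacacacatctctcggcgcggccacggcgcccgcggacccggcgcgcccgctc
Arntl (chr7:113207261-113207560, plus strand): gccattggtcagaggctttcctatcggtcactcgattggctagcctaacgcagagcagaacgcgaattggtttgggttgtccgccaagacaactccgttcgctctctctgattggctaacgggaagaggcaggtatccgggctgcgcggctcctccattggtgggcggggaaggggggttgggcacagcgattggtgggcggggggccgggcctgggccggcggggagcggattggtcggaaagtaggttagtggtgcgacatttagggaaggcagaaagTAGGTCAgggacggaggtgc
The genes with an E-box or a D-box in these windows peaked from ZT12.4 (Ciart and Tef) to ZT19.95 (Cry1), and those with the RORE letters at ZT22.0 (Nfil3) and ZT22.7 (Arntl). Promoters were found for 8911 of the tested genes (11376 windows), of which 10.2% held the E-box, 3.91% the D-box and 2.12% the RORE letters. Among called genes of at least 2-fold, the E-box was in 15.9% of the windows of genes peaking in ZT12 to 18 and in 6.63% of those peaking in ZT0 to 6. The RORE letters were in 5.42% of the windows of ZT0 to 6 and 1.93% of those of ZT12 to 18. A match is a run of letters and not a measured binding site. No match was found in the windows of Nr1d1, Nr1d2, Dbp, Cry2, Hlf or Clock.

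The REV-ERB repressors were the first of the clock genes to peak in the light phase. Nr1d1 was measured at 0.413, 1.19, 7.52, 5.48, 3.67, 6.84, 4.72, 0.788, 0.880, 0.291, 0.401, 0.332 FPKM from ZT0 to ZT22, a fold of 19.6 with its fitted peak at ZT7.94 ± 0.393 h (adjusted p = 0.000167). Its 5 values from ZT4 to ZT12 all lay above its 7 others; it overlaps Thra on the other strand, and reads of the 2 genes may not have been separated. Nr1d2 ranged from 1.63 FPKM at ZT22 to 36.7 FPKM at ZT8 (median 11.7), 16.8-fold, with its peak at ZT9.59 ± 0.244 h (adjusted p = 6.85e-06). Among the activators of D-box genes, Dbp was highest from ZT6 to ZT12, ran from 0.433 FPKM at ZT2 to 23.0 FPKM at ZT10 (median 2.62) and had a fold of 30.4, at ZT10.4 ± 0.369 h (adjusted p = 0.000105); it overlaps Sphk2. Tef, its relative, followed at ZT12.4 ± 0.352 h with 6.74-fold and values from 4.13 FPKM at ZT2 to 44.9 FPKM at ZT12 (median 20). Hlf was the last and shallowest of the 3 at ZT15.4 ± 0.543 h, 2.70-fold. With depth as a term the fold of Nr1d1 was 11.8 and its call held.

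The Per and Cry genes, which encode the repressors of CLOCK and BMAL1, followed through the dark phase. Ciart, another repressor of the pair, ran from 0.0700 FPKM at ZT2 to 5.55 FPKM at ZT12 (median 1.06), 20.6-fold at ZT12.4 ± 0.290 h. Per3 peaked at ZT12.5 ± 0.369 h with 12.0-fold and Per1 at ZT14.1 ± 0.678 h with 3.64-fold. Per2 came later at ZT16.01 ± 0.295 h, 9.28-fold, with values from 0.672 FPKM at ZT2 to 8.69 FPKM at ZT18 (median 3.41) (adjusted p = 2.38e-05). All these genes were lowest at ZT2, and so were Bhlhe40, Hlf, Tef, Dbp and Cry2. Cry2 had the smallest called fold of the clock, 1.92 at ZT15.4 ± 0.928 h (adjusted p = 0.0233), and lost its call when ZT2 or ZT18 was left out and with depth as a term (highest adjusted p = 0.107). Cry1 was the late member, with 8.09, 4.60, 2.98, 1.51, 1.13, 1.17, 2.97, 5.86, 8.69, 11.9, 14.99, 14.8 FPKM from ZT0 to ZT22, a single trough at ZT8 and ZT10 and a fold of 11.4 at ZT19.95 ± 0.196 h (adjusted p = 1.95e-06).

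The activator side peaked in the later night. Arntl was at 11.8, 11.9, 8.54, 1.71, 0.504, 0.386, 0.247, 1.11, 4.40, 7.20, 10.2, 11.1 FPKM from ZT0 to ZT22, its 4 values from ZT6 to ZT12 and that of ZT14 all being under 2 FPKM, and its fold of 33.9 at ZT22.7 ± 0.344 h was the largest in the clock (adjusted p = 7.72e-05). Its partner Clock moved far less, 2.09-fold at ZT23.2 ± 0.717 h, from 4.97 FPKM at ZT12 to 14.2 FPKM at ZT22 (median 11.4) (adjusted p = 0.00629). Rora, an activator that acts on RORE sites, was the 1 tested clock gene without a call, with a fitted fold of 1.18 and an adjusted p of 0.548. Nfil3, the repressor of D-box genes, peaked at ZT22.0 ± 0.477 h, 6.07-fold, on the opposite side of the day from Dbp (9.18-fold with depth as a term). Npas2 and Bhlhe41 lay under the level filter. Every clock gene that was called was also called with the GC trend out and without ZT8 and ZT22, and 15 of the 16 with depth as a term.

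**Figure D2:**
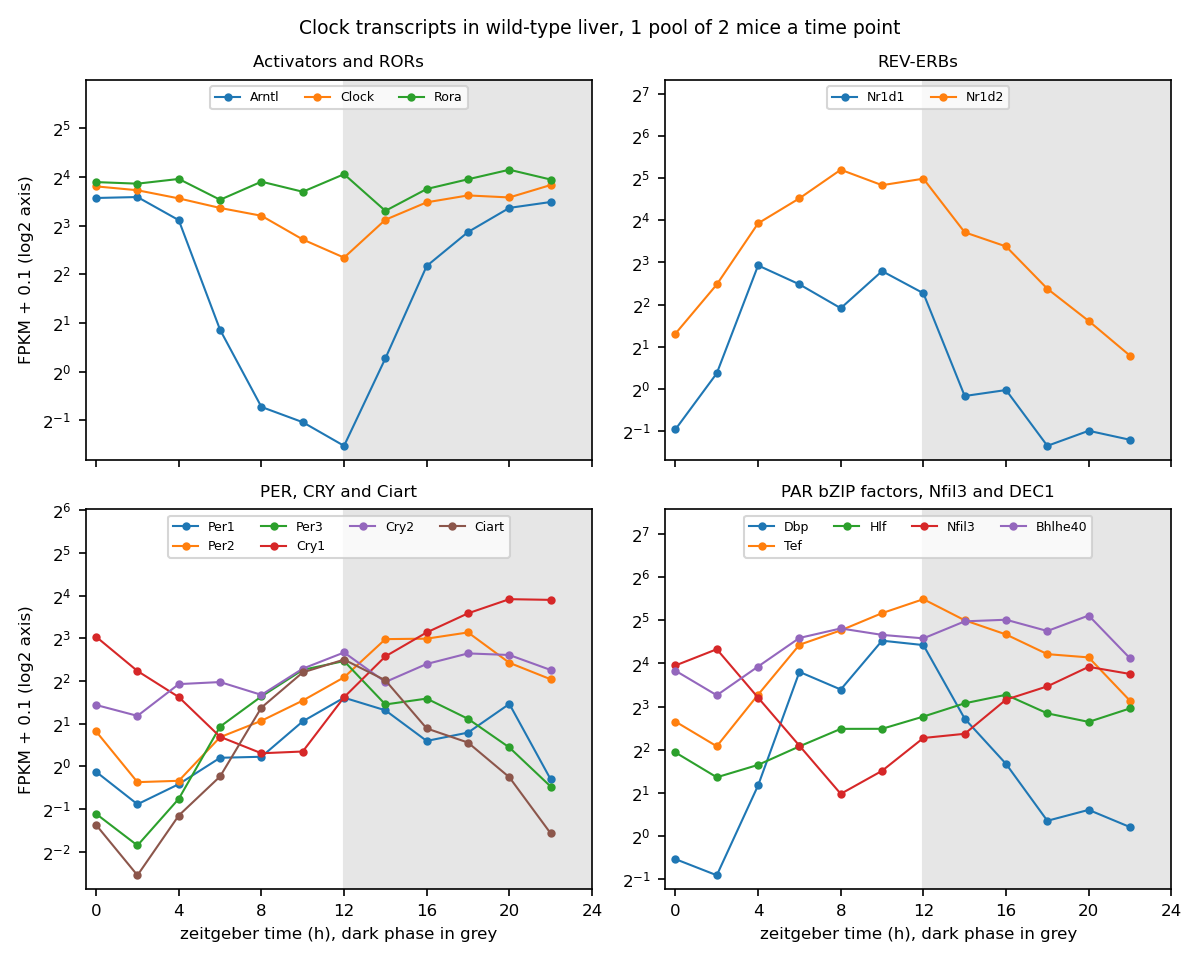
Levels of clock genes in the 12 wild-type total RNA libraries (y axes, FPKM + 0.1 on a log2 axis; x axes, ZT in hours, dark phase in grey), 1 point per pool of 2 mice joined by lines. Nr1d1 is high from ZT4 to ZT12, and Arntl is lowest at ZT12 (0.247 FPKM) while Rora changes little.

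The early light phase, ZT0 to 6, held 168 genes of at least 2-fold. Elovl3, which elongates long fatty acids, ran from 13.7 FPKM at ZT14 to 501 FPKM at ZT2 (median 145), 20.8-fold with a peak at ZT0.146 ± 0.305 h (adjusted p = 2.97e-05); it overlaps Pitx3. Clpx, a mitochondrial chaperone that also acts on the heme enzyme ALAS1, went from 20.4 FPKM at ZT12 to 138 FPKM at ZT2 (median 60.8), 5.63-fold at ZT0.613 ± 0.282 h. Igfbp1, a secreted binding protein of insulin-like growth factors, went from 2.08 FPKM at ZT14 to 55.5 FPKM at ZT2 (median 14.4), 8.74-fold at ZT4.44 ± 0.860 h (adjusted p = 0.0160). Its lowest value came after food was given and its highest in the light phase, without food. Of 12 tested immediate early genes 3 were called (25%, near the 27.9% of all tested genes). All 3 peaked in this window, which held 14.1% of all called genes: Egr1 (7.54-fold, peak ZT5.21), Nr4a1 (5.79-fold, peak ZT5.98) and Klf6 (1.72-fold, peak ZT4.65). Egr1 and Nr4a1 had their highest values in the ZT4 library, 7.57 and 1.80 FPKM, and medians of 0.588 and 0.312 FPKM. Egr1 lost its call without ZT8 and ZT22 (adjusted p = 0.0558), and its fold was 4.40 without ZT4 and 12.2 without ZT6. Abcb11, the pump that exports bile salts from hepatocytes, peaked at ZT3.19 ± 0.412 h, 2.39-fold, from 80.4 FPKM at ZT14 to 260.1 FPKM at ZT2 (median 156). Cth, an enzyme of cysteine synthesis, peaked at ZT1.75 ± 0.707 h, 2.09-fold. Igfbp1, Nr4a1, Klf6 and Egr1 did not pass with depth as a term (adjusted p = 0.0554 to 0.237).

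The second window, ZT6 to 12, is the end of the daily hours without food, and 252 genes of at least 2-fold peaked in it. The largest fold was that of Rgs16, a regulator of G-protein signalling, which ran from 0.188 FPKM at ZT18 to 14.6 FPKM at ZT12 (median 2.02), 30.8-fold at ZT8.95 ± 0.598 h (adjusted p = 0.00219), and 60.2-fold without ZT20 and 79.0-fold with depth as a term. Gpcpd1, which breaks down glycerophosphocholine, ran from 10.9 FPKM at ZT18 to 119 FPKM at ZT8 (median 30.3), 10-fold at ZT8.68 ± 0.246 h (adjusted p = 6.85e-06), and 16.2-fold with depth as a term. The metallothioneins Mt1 (10.6-fold, peak ZT8.10 ± 0.817 h, adjusted p = 0.0125) and Mt2 (13.7-fold, peak ZT6.67 ± 0.962 h, adjusted p = 0.0273) bind zinc and copper, and both were highest in the ZT10 library, at 104 and 38.1 FPKM against medians of 19.1 and 3.98. Mt2 lost its call when ZT6, ZT16, ZT18 or ZT20 was left out (adjusted p up to 0.0728), and its fold was 21.4 without ZT8 and 9.10 without ZT16. Without ZT8 and ZT22 the folds of Mt1 and Mt2 were 17.98 and 25.9, and with depth as a term 5.25 and 5.78. Of 25 tested autophagy genes 10 were called (40%, against 27.9% of all tested genes). Of the 10, 5 peaked in this window, which held 33.2% of all called genes. The median amplitude of the 25 was 0.22 on the log2 scale against 0.23 over all tested genes. The autophagy calls numbered 11 with the GC trend out, 7 without ZT8 and ZT22 and 3 with depth as a term, and 5 to 6 without ZT14, ZT18 or ZT22. Gabarapl1, which helps to build the autophagosome membrane, went from 38.7 FPKM at ZT18 to 167 FPKM at ZT6 (median 92.2), 3.56-fold at ZT6.59 ± 0.313 h (adjusted p = 3.28e-05). Of 37 proteasome subunits 6 were called (16.2%, under the 27.9% of all tested genes), 4 with a peak in this window and 2 in the window before, all under 2-fold, with Psma5 the largest at 1.89-fold and ZT7.78; 3 were called without ZT18, 2 without ZT20 and none by limma with depth as a term (5 at an unadjusted p under 0.05). Cirbp and Srsf5, 2 of 3 tested RNA-binding proteins that respond to cold, peaked at ZT6.80 (2.85-fold) and ZT7.43 (2.10-fold). Mt1, Mt2, Psma5 and Cirbp did not pass with depth as a term (adjusted p = 0.0883 to 0.518).

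Of 24 tested genes of fat oxidation and ketogenesis 8 were called, against 27.9% of all tested genes, with 3 peaking in ZT6 to 12, 3 in ZT12 to 18 and 2 in ZT18 to 24. Ppara, the fatty acid receptor that drives the pathway, ran from 23.7 FPKM at ZT2 to 55.6 FPKM at ZT12 (median 37.6), 1.91-fold at ZT11.3 ± 0.556 h (adjusted p = 0.00138). Acot3 and Acot4, acyl-CoA thioesterases, peaked later at ZT15.2 (8.42-fold, 13.2-fold with depth as a term) and ZT15.8 (2.81-fold). Pdk4, which shuts glucose carbon out of mitochondria, peaked at ZT22.6 ± 0.609 h, 5.21-fold, from 0.814 FPKM at ZT10 to 7.02 FPKM at ZT22 (median 2.70). The called members of the list were spread from ZT9.31 to ZT22.6. The 5 of these 8 genes that also passed with depth as a term included Ppara, Acot3, Acot4 and Pdk4. Hadhb lost its call with the GC trend out (adjusted p = 0.0914) and without ZT8 and ZT22 (adjusted p = 0.0788).

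Major urinary proteins, pheromone carriers secreted by the liver, had 9 of 17 tested genes called, against 27.9% of all tested genes. Of the 9, 8 peaked in ZT6 to 12, the window that held 33.2% of all called genes. Mup16 went from 41.9 FPKM at ZT22 to 258 FPKM at ZT8 (median 73.3), 3.999-fold at ZT7.44 ± 0.739 h (adjusted p = 0.00738). The genes are near-identical copies whose reads may have been divided among them, so values of single members are uncertain. Of the 17, 5 were called with the GC trend out, 2 without ZT8 and ZT22 and none with depth as a term of the limma fit (4 at an unadjusted p under 0.05). Without ZT4, ZT8, ZT18 or ZT22 alone, 3 to 5 were called.

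**Figure D3:**
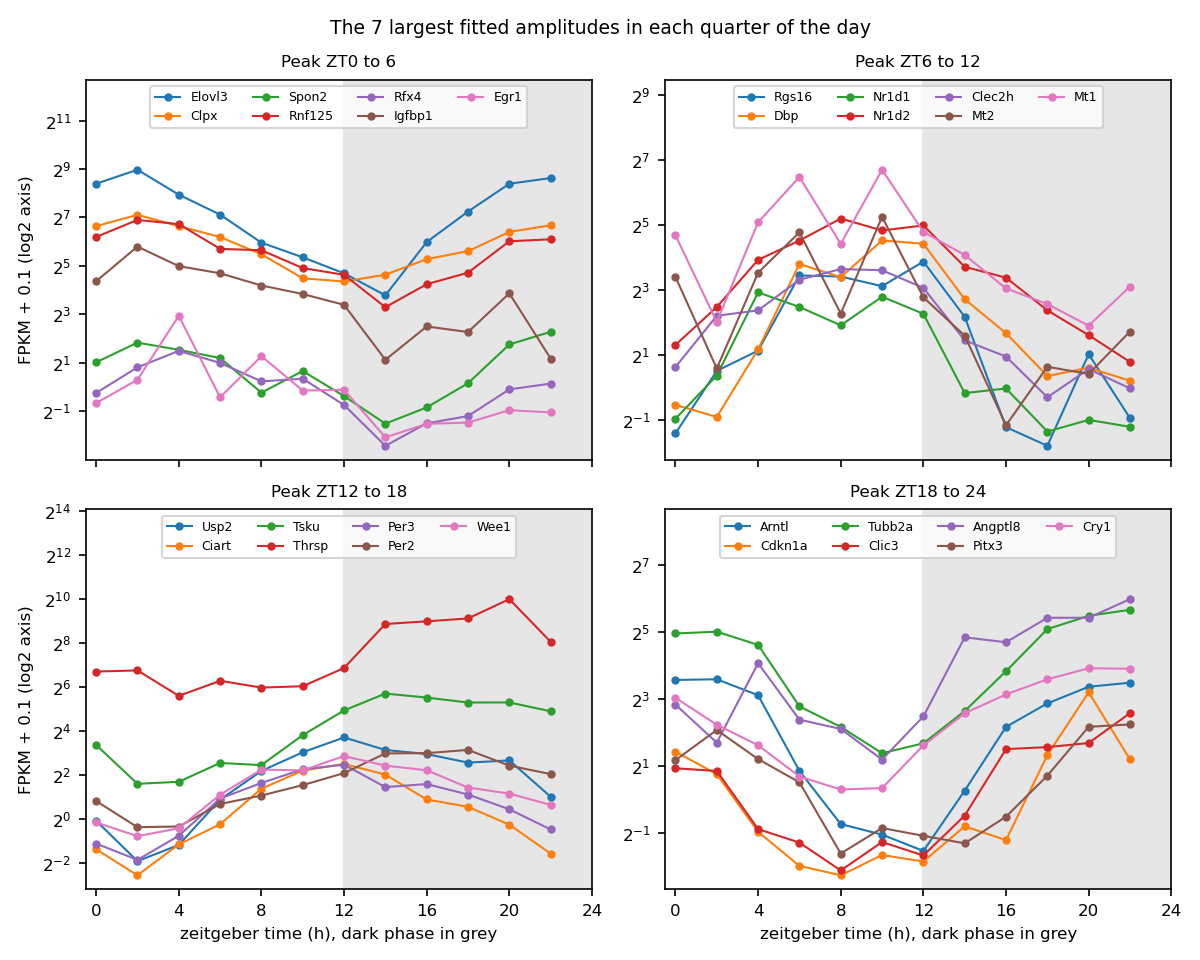
Levels of the 7 genes with the largest fitted amplitude in each 6 h window of the day in the 12 wild-type total RNA libraries, 1 point per pool joined by lines (x axes, ZT in hours, dark phase in grey; y axes, FPKM + 0.1 on a log2 axis). Rgs16 reaches 14.6 FPKM at ZT12 and Cdkn1a 9.09 FPKM at ZT20, and the lines of Mt1 and Mt2 dip at ZT2 and ZT8.

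In the third window, ZT12 to 18, when food became available, 203 genes of at least 2-fold peaked. Usp2, a ubiquitin-specific protease, ran from 0.165 FPKM at ZT2 to 12.9 FPKM at ZT12 (median 5.11), 24.2-fold at ZT14.1 ± 0.422 h (adjusted p = 0.00024). Tsku, a secreted protein, ran from 2.93 FPKM at ZT2 to 51.7 FPKM at ZT14 (median 21.8), 16.02-fold at ZT16.5 ± 0.282 h (adjusted p = 1.69e-05). Alas1, the rate-limiting enzyme of heme synthesis, ran from 23.9 FPKM at ZT4 to 314 FPKM at ZT14 (median 65.0), 7.62-fold at ZT13.8 ± 0.471 h (adjusted p = 0.000501). Por, which passes electrons to the heme-carrying cytochrome P450 enzymes, peaked alongside at ZT14.98 ± 0.456 h, 4.43-fold. Of the 14 tested genes of heme synthesis and drug regulation 6 were called (42.9%, against 27.9% of all tested genes), and 3 with depth as a term. Of the 6, 3 peaked in this window, which held 18.6% of all called genes, the third being the xenobiotic receptor Nr1i3 (2.10-fold, peak ZT13.6). Of 35 tested P450 enzymes 7 were called (20%), against 27.9% of all tested genes in the main fit. With depth as a term 5 of the 35 were called, against 7.55% of all tested genes, so the order of the shares depended on the fit. Cyp2a5 peaked with Alas1 and Por at ZT14.4 ± 0.364 h, 5.07-fold, from 61.3 FPKM at ZT4 to 354 FPKM at ZT16 (median 197). Cyp2b10 peaked at ZT21.4 (5.12-fold), whereas Cyp2e1, Cyp3a25 and Cyp3a59 peaked between ZT8.34 and ZT11.4 with folds of 1.91 to 2.08. These 5 P450 genes also passed with depth as a term. Conjugation enzymes, which follow the P450 enzymes in drug disposal, had 9 of 42 tested genes called (21.4%, and 5 without ZT22). With depth as a term 7 of the 42 were called, again a larger share than the 7.55% of all tested genes. Of the 9, 5 peaked in ZT6 to 12, the window that held 33.2% of all called genes, with Sult1c2 the largest (2.79-fold, peak ZT10.04).

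Bile acid genes divided over the day. Cyp7a1, the rate-limiting enzyme of bile acid synthesis, ran from 11.1 FPKM at ZT4 to 105 FPKM at ZT16 (median 44.0), 4.40-fold at ZT14.7 ± 0.747 h (adjusted p = 0.00778). Slco1b2, which takes up organic anions from blood, peaked at ZT9.26 ± 0.555 h, 2.54-fold, and Abcb11 at ZT3.19. Cyp8b1 and Cyp7b1, enzymes of the same synthesis, peaked at ZT0.767 (2.18-fold) and ZT7.51 (1.91-fold), so the called synthetic enzymes had no common time. Of 12 tested genes of the list 6 were called, against 27.9% of all tested genes, and 3 with depth as a term. Cyp8b1 and Cyp7b1 lost their calls by limma without ZT8 and ZT22 (adjusted p = 0.0722 and 0.108).

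Glucocorticoid targets had 8 of 12 tested genes called, against 27.9% of all tested genes, but no common time; the count was 5 without ZT20 and 2 with depth as a term. Fkbp5, a chaperone of the glucocorticoid receptor, ran from 1.98 FPKM at ZT2 to 19.7 FPKM at ZT14 (median 5.46), 6.46-fold at ZT15.4 ± 0.483 h (adjusted p = 0.00056), close to Per1 at ZT14.1. The metallothioneins of the list peaked at ZT6.67 and ZT8.10 and Tat at ZT19.6. Nampt, the rate-limiting enzyme of NAD salvage, peaked at ZT14.3 ± 0.426 h, 3.57-fold, from 10.6 FPKM at ZT4 to 49.0 FPKM at ZT14 (median 21.1). Nmrk1, a kinase of the NAD precursor nicotinamide riboside, peaked at ZT14.0 ± 0.558 h, 2.95-fold. They were 2 of the 3 genes called among 13 of NAD metabolism and the sirtuins (23.1%). Noct, which encodes the nucleotide phosphatase nocturnin, peaked at ZT14.4 ± 0.827 h, 4.31-fold. Noct and Tat did not pass with depth as a term (adjusted p = 0.0571 to 0.148).

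Called ribosome biogenesis genes peaked mainly in the dark phase, which held 1671 of the 3174 peaks of all called genes. Of 26 tested genes 13 were called (50%, against 27.9% of all tested genes). Of the 13, 8 peaked in ZT12 to 18, 3 in ZT18 to 24, 2 in ZT6 to 12 and none in ZT0 to 6. Those windows held 18.6%, 34.0%, 33.2% and 14.1% of all called genes. Rrp12, an export factor of pre-ribosomes, ran from 0.514 FPKM at ZT8 to 2.79 FPKM at ZT18 (median 1.07), 3.65-fold at ZT18.6 ± 0.409 h (adjusted p = 0.000195). Mybbp1a and Nop2, nucleolar proteins, peaked at ZT17.9 (2.59-fold) and ZT17.7 (2.93-fold). The count rose to 20 with the GC trend out, 12 of them in ZT12 to 18, and fell to 8 without ZT8 and ZT22 and to 3 with depth as a term. Of 63 tested cytosolic ribosomal proteins 3 were called (4.76%), against 27.9% of all tested genes, while their median amplitude of 0.23 on the log2 scale was close to the 0.23 of all tested genes. Each of the 3 lost its call without ZT8 and ZT22 and without ZT22 alone, and with depth as a term limma called none of the 63, of which 6 had an unadjusted p under 0.05. Of 62 translation factors 15 were called (24.2%), and 3 with depth as a term, among the 15 the translation inhibitor Eif4ebp3 (3.77-fold, peak ZT14.6 ± 0.651 h, adjusted p = 0.00363).

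Lipogenesis, the making of fatty acids and triglycerides from excess carbon, was rhythmic in nearly all of its genes. Of 19 tested lipogenic genes 18 were called, against 27.9% of all tested genes, with 9 peaks in ZT18 to 24, 6 in ZT12 to 18 and 3 in ZT0 to 6. Those windows held 34.0%, 18.6% and 14.1% of all called genes. The median amplitude of the list was 0.75 on the log2 scale, against 0.23 over all tested genes. Fasn, the fatty acid synthase, ran from 8.19 FPKM at ZT8 to 144 FPKM at ZT20 (median 22.2), 10.6-fold at ZT19.3 ± 0.353 h (adjusted p = 8e-05). Thrsp, a lipogenic nuclear protein, ran from 48.1 FPKM at ZT4 to 1011 FPKM at ZT20 (median 112), 13.4-fold at ZT18 ± 0.401 h. Acacb, the acetyl-CoA carboxylase of mitochondria, ran from 1.19 FPKM at ZT8 to 27.9 FPKM at ZT20 (median 4.63), 7.32-fold at ZT20.4 ± 0.533 h. Srebf1, which encodes the activator of these genes, SREBP-1, ran from 5.97 FPKM at ZT8 to 48.1 FPKM at ZT22 (median 17.2), 5.66-fold at ZT18.6 ± 0.395 h (adjusted p = 0.000167). Fasn, Acacb and Srebf1 were all lowest at ZT8, the library with the strongest GC trend. With that trend out the folds were 7.58, 5.50 and 4.06, and without ZT8 and ZT22 they were 9.61, 5.49 and 4.68, with each gene still called. The list had 18 calls with the GC trend out, 16 without ZT8 and ZT22 and 11 with depth as a term. With depth as a term the folds of Fasn, Thrsp and Acacb were 5.20, 4.15 and 4.64, and Acacb did not pass (adjusted p = 0.0528).

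Cholesterol synthesis and uptake genes peaked mainly in the last window too. Of 24 tested genes 13 were called, against 27.9% of all tested genes. Of the 13, 11 peaked in ZT18 to 24, the window that held 34.0% of all called genes. The median amplitude of the 24 was 0.54 on the log2 scale, against 0.23 over all tested genes. Mvd, a decarboxylase of the pathway, ran from 0.958 FPKM at ZT8 to 11.4 FPKM at ZT20 (median 3.59), 5.35-fold at ZT20.8 ± 0.691 h (adjusted p = 0.00509). Pmvk, the enzyme before it, peaked at ZT21.9 ± 0.512 h with 3.57-fold. Srebf2, which encodes the activator SREBP-2, peaked at ZT19.9 ± 0.618 h, 3.35-fold. Calls numbered 13 with the GC trend out, 10 without ZT8 and ZT22 and 3 with depth as a term. Mvd and Srebf2 did not pass with depth as a term (adjusted p = 0.0595 to 0.0839).

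Of 14 tested genes of glycolysis and glucose uptake 10 were called, against 27.9% of all tested genes. The count was 10 with the GC trend out, against 32.5% of all tested genes. It fell to 6 without ZT8 or ZT18 and to 4 without ZT20 or ZT22. Without both ZT8 and ZT22 it was 3 of 14, near the 18.9% of all tested genes. With depth as a term it was 1 of 14, near the 7.55% of all tested genes. Of 9 tested glycogen genes 8 were called, with peaks from ZT6.92 to ZT23.1, none of them in ZT0 to 6; the count was 5 without ZT18 or ZT20 and 4 with depth as a term. Gys2, the glycogen synthase of the liver, ran from 41.4 FPKM at ZT0 to 159.7 FPKM at ZT12 (median 87.8), 3.24-fold at ZT12.7 ± 0.307 h (adjusted p = 2.97e-05). Ppp1r3b and Ppp1r3c, which bring a phosphatase to glycogen, came later at ZT19.5 ± 0.418 h (8.39-fold, 4.68-fold with depth as a term) and ZT23.0 ± 0.453 h (6.58-fold). The synthase mRNA thus peaked near lights off and those of the phosphatase subunits late in the night. Slc2a2, the glucose carrier of the hepatocyte membrane, peaked at ZT11.2 ± 0.731 h, 2.08-fold. Of 11 tested genes of gluconeogenesis 3 were called (27.3%, near the 27.9% of all tested genes), and 1 with depth as a term. The 3 included the glucose-6-phosphate carrier Slc37a4 (2.05-fold, peak ZT14.1). Gys2, Ppp1r3b, Ppp1r3c, Slc2a2 and Slc37a4 also passed with depth as a term.

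Of 8 tested urea cycle genes 4 were called, and of 20 tested genes of amino acid breakdown 8 were called, against 27.9% of all tested genes. All 4 of the first list and 6 of the 8 of the second peaked in ZT18 to 24, the window that held 34.0% of all called genes. The amino acid breakdown count was 4 without ZT8 and 5 without ZT20. With depth as a term 1 gene of each list was called, against 7.55% of all tested genes. Asl, which releases arginine in the urea cycle, ran from 60.5 FPKM at ZT8 to 286 FPKM at ZT20 (median 160.3), 2.41-fold at ZT19.4 ± 0.646 h. Ass1, the enzyme before it, peaked at ZT21.5 ± 0.741 h, 1.79-fold. Gldc, the glycine decarboxylase, peaked at ZT22.4 ± 0.420 h, 3.36-fold, and Tat, the tyrosine aminotransferase, at ZT19.6 ± 0.753 h, 2.33-fold. Aminoacyl-tRNA synthetases, which load amino acids for translation, had 8 of 20 called (5 without ZT20 or ZT22 and 1 with depth as a term). Of these 8, 7 peaked in ZT18 to 24, against 34.0% of all called genes. Tars, the threonine enzyme, ran from 24.5 FPKM at ZT10 to 71.3 FPKM at ZT2 (median 46.3), 2.81-fold at ZT23.8 ± 0.306 h (adjusted p = 2.97e-05). Asl and Tat did not pass with depth as a term (adjusted p = 0.111 to 0.148).

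Mitochondrial carriers had 14 of 37 tested called (37.8%, against 27.9% of all tested genes). Of the 14, 9 peaked in ZT18 to 24, against 34.0% of all called genes. The largest were Slc25a23, an ATP and phosphate carrier (2.31-fold, peak ZT19.7 ± 0.569 h, adjusted p = 0.00151), and Slc25a44, a carrier of branched-chain amino acids (2.28-fold, peak ZT20.2 ± 0.454 h, adjusted p = 0.000382). The count was 14 without ZT8 and ZT22, 18 with the GC trend out and 5 with depth as a term. Heat shock genes had 5 calls of 17 tested (29.4%, near the 27.9% of all tested genes), all in ZT18 to 24. That window held 34.0% of all called genes. Fkbp4, a partner of HSP90, ran from 18.5 FPKM at ZT8 to 77.6 FPKM at ZT20 (median 43.7), 2.92-fold at ZT20.7 ± 0.471 h. With the GC trend out, 10 heat shock genes were called, 9 of them in that window, against 3 without ZT8 and 1 with depth as a term.

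The 7 largest amplitudes of the last window, among genes averaging 1 FPKM or more, included Arntl and Cry1 of the clock. The others belonged to genes outside the pathways above. Cdkn1a, the cell cycle inhibitor p21, ran from 0.11 FPKM at ZT8 to 9.09 FPKM at ZT20 (median 0.446), 19.9-fold at ZT21.3 ± 0.474 h (adjusted p = 0.000516). The cell cycle list had 4 calls of 10 tested, against 27.9% of all tested genes, and 2 without ZT12. Wee1, a kinase that holds cells before mitosis, peaked on the other side of the night at ZT13.0 ± 0.357 h, 8.77-fold, and Ccne1, a cyclin of the start of DNA synthesis, at ZT10.8 ± 0.642 h, 7.30-fold. Tubb2a, a beta-tubulin, ran from 2.51 FPKM at ZT10 to 50.3 FPKM at ZT22 (median 19.2), 16.8-fold at ZT22.3 ± 0.267 h (adjusted p = 1.08e-05). Ppard, a fatty acid receptor, ran from 0.0490 FPKM at ZT8 to 3.96 FPKM at ZT22 (median 0.344), 13.1-fold at ZT21.4 ± 0.426 h. Angptl8, which acts on lipoprotein lipase and is known to rise with feeding, ran from 2.19 FPKM at ZT10 to 62.7 FPKM at ZT22 (median 11.8), 12.0-fold at ZT19.1 ± 0.766 h (adjusted p = 0.00883), and 7.90-fold with the GC trend out and 3.20-fold with depth as a term; it overlaps Dock6. Angptl8 did not pass with depth as a term (adjusted p = 0.490). Lgalsl, a galectin-related protein, had 1 of the 5 smallest p-values of all tested genes (6.20-fold, peak ZT22.5 ± 0.237 h, adjusted p = 6.85e-06).

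**Figure D4:**
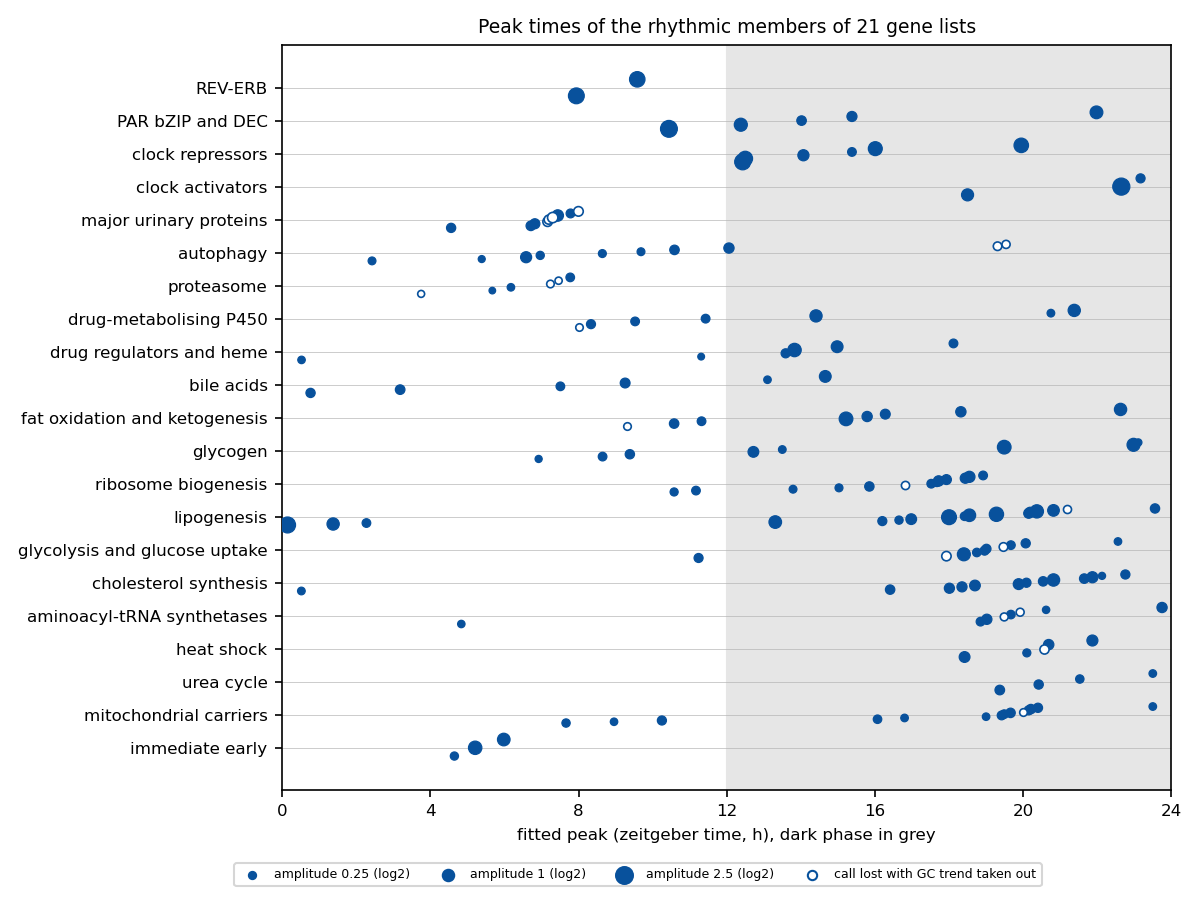
Fitted peak times (x axis, ZT in hours) of the called members of 21 gene lists (rows), with point size for the fitted amplitude on the log2 scale, open points for calls lost with the GC trend out, and the dark phase in grey. Of the 13 cholesterol synthesis points 11 lie in ZT18 to 24, and of the 9 major urinary protein points 8 lie in ZT6 to 12.

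Some large gene groups had few rhythms. Of 72 tested genes of the respiratory chain 3 were called, with a median amplitude of 0.10 on the log2 scale, and of 72 mitochondrial ribosomal proteins 6 were called, with a median of 0.13, against 27.9% called and a median of 0.23 over all tested genes. Without ZT18 the first count was 1, and without ZT20 or ZT22 the second was 2. None of 12 tested apolipoproteins was called by limma at an adjusted p under 0.05, and 1 had an unadjusted p under 0.05. Acute phase genes had 2 calls of 18, the fibrinogen chains Fgg and Fgb, and both lost them with the GC trend out (adjusted p = 0.0646 and 0.128). The acute phase count ranged from 0 without ZT18 to 9 without ZT10. The steadiest gene averaging 20 FPKM or more was Eif3c, a translation initiation factor, whose highest value was 1.12 times its lowest. Genes in common use as references were not all steady. Actb, beta-actin, ran from 143 FPKM at ZT8 to 378 FPKM at ZT22 (median 226), 1.90-fold at ZT22.3 ± 0.651 h (adjusted p = 0.00363). The fitted folds of Sdha, Ywhaz and Hprt were 1.04, 1.08 and 1.12, with no call.

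Of 12 markers of Kupffer cells, which are resident macrophages, 7 were called, against 27.9% of all tested genes. The sum of all 12 ran from 96.0 FPKM at ZT18 to 242 FPKM at ZT10, with a median of 160. Cd5l, a secreted macrophage protein, ran from 18.6 FPKM at ZT18 to 66.2 FPKM at ZT10, 2.399-fold at ZT6.41 ± 0.647 h (adjusted p = 0.00354). Clec4f, a lectin particular to these cells, ran from 19.0 FPKM at ZT18 to 45.1 FPKM at ZT6, 1.67-fold at ZT5.25 (adjusted p = 0.0212), and Vsig4, a complement receptor, from 8.72 FPKM at ZT18 to 25.2 FPKM at ZT6, 2.07-fold at ZT5.76 (adjusted p = 0.0146). All 3 were lowest in the ZT18 library, without which 2 of the 12 markers were called, against 4 without ZT6 or ZT20, and the complement genes C1qa, C1qb and C1qc were not called. The sum of endothelial cell markers varied less, between 97.8 and 140.4 FPKM. Of these markers 4 of 12 tested were called (2 without ZT14, ZT18, ZT20 or ZT22), close to the share of all tested genes. The sums of 2 other cell types were also lowest at ZT18: cholangiocyte markers ran from 14.7 FPKM at ZT18 to 50.7 FPKM at ZT10, and stellate cell markers from 132 FPKM at ZT18 to 184 FPKM at ZT6, with 1 of 2 and 1 of 9 tested markers called. Neutrophil markers summed to 61.8 FPKM in the ZT6 library against a median of 4.61, and lymphocyte markers to at most 2.63. Of the Kupffer markers, 11 were called with the GC trend out, 8 without ZT8 and ZT22 and none by limma with depth as a term (1 at an unadjusted p under 0.05).

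Shapes with more than 1 peak a day were not found at the threshold. No gene of 11356 (0%) was called by limma for a 12 h component beside the 24 h curve, and 299 had an unadjusted p under 0.05. The smallest p-values belonged to Usp2, Arntl, Hspa8, Atp2a2 and Hsph1, each with an adjusted p of 0.690. For Hsph1 and Hspa8, chaperones of the heat shock family, the fitted 12 h terms had amplitudes of 0.781 and 0.560 on the log2 scale, with peaks at ZT3.00 and ZT3.09 and again 12 h later. Neither had a called 24 h rhythm in the main fit.

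Unspliced RNA, read as intron expression in the 12 nuclear libraries, was called rhythmic for fewer genes in the main fits and ran ahead of the mRNA. Of 12034 genes tested in introns 1882 (15.6%) were called. The share of mRNAs called was 27.9% in the main fit and 7.55% with depth as a term, which was not fitted to the introns. The level filters differed too, so the order of the shares is uncertain. Of the 3047 genes with a called mRNA rhythm that were also tested in introns, 839 (27.5%) were called there, against 823 (11.045%) of 7451 genes without one. Among the 839, the mRNA peaked a median of 2.39 h after the intron signal (quartiles 0.88 to 4.50 h), and later in 749; the difference exceeded 6 h in 127. The delay was longer for mRNAs peaking in ZT0 to 6 (median 4.41 h) and ZT12 to 18 (3.80 h) than in ZT6 to 12 (1.86 h) and ZT18 to 24 (1.44 h). These delays were taken from the main fits only. In the clock, Arntl introns peaked at ZT21.3 and its mRNA at ZT22.7, Per2 introns at ZT14.5 and mRNA at ZT16.01, and Cry1 introns at ZT18.8 and mRNA at ZT19.95. Nr1d1 was an exception, with introns at ZT8.03 and mRNA at ZT7.94. The nuclear count depended on single libraries, with 1156 genes called without ZT8 and 1230 without ZT22.

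**Figure D5:**
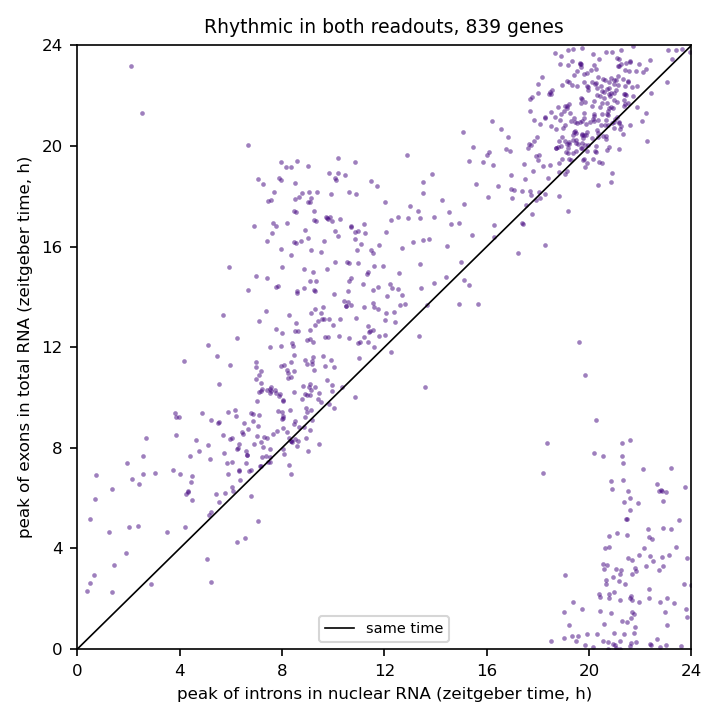
Fitted peak time of nuclear introns (x axis, ZT in hours) against that of mRNA (y axis, ZT in hours) for the 839 genes called in both, 1 point per gene, with a line of equal times. The mRNA peak came later in 749 of the 839, counting the points at the lower right, whose mRNA peaked after the next lights on.

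In nono-/- liver the same test called 2508 of 11308 genes (22.2%). Of 3131 genes rhythmic in wild type and tested in both, 1465 (46.8%) were called in both, and 2320 (74.1%) peaked within 3 h of their wild-type time, with a median shift of 1.27 h later (quartiles -0.16 to 2.58 h). When the difference between genotypes was tested directly by limma in 24 libraries, 0 of 11340 genes passed (0%), and 1206 had an unadjusted p under 0.05. The smallest p-values among genes rhythmic in wild type belonged to Gemin6, Srebf1, Arsb, Celsr1 and Hadhb (adjusted p = 0.395 to 0.463). For Srebf1 the fitted fold was 5.66 with a peak at ZT18.6 in wild type and 1.75 with a peak at ZT21.8 in nono-/-. GC trends also stood out in nono-/- libraries, with rho from -0.540 at ZT14 to 0.513 at ZT6, and at other times of day than in wild type. A test that misses the threshold does not show that the rhythms were alike.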

How the data were processed

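RNA of whole liver was sequenced after ribosomal depletion with stranded TruSeq Total RNA and Ribo-Zero Gold kits, per the labels' protocols. Among tools, the processing notes of the submitters list STAR 2.4.0k and FastQC 0.11.2, and mm10 as build. The authors computed FPKM over exons, and over introns, with HOMER's analyzeRepeats.pl, per the file headers, which give no version. The deposited FPKM values are normalized to length and mapped reads, and no strand option is recorded, so reads of overlapping genes may not be separated (42 of 236 named genes overlap another). Depth was recovered from the steps between low FPKM values, and all low values fell within 0.1 read of a whole number in the 12 libraries.

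From the exon table of 24453 genes, libraries were scaled by median ratio (factors 0.919 to 1.09), and genes averaging 0.5 FPKM or more were fitted on log2(FPKM + 0.1) with limma 3.58.1 (R 4.3.3, trended variance). The fold is 2 to the power of 2 amplitudes, on the scale with pseudocount, which understates changes of low genes. Introns of nuclear RNA were fitted on log2(FPKM + 0.05) from a mean of 0.1 FPKM. The procedure was tested on simulated data. Transcript GC content, from the longest annotated transcript, was had for 11273 tested genes; that trend, a cubic per library, was taken out as an alternative. No 2 of the 12 libraries held identical values in 66 pairs. Figures were drawn with matplotlib 3.10.9 under Python 3.11.15.

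Named genes are all clock genes; per 6 h window of the day, the 7 called genes of largest amplitude with a mean of at least 1 FPKM; the 5 of smallest p; 2 to 5 members of each list, called ones of largest amplitude first; the 5 of smallest p for a 12 h component and for a genotype difference; and the 5 steadiest. The macrophage genes come from the cell type markers. The members, the 47 gene lists and the tests were chosen with earlier results of these data known, so counts over a list are descriptions. Alternatives covered the pseudocount, the level filter, scaling, variance trend, 12 h terms, intron share, depth, GC trend and leaving out each library. Some genes that the naming rule or the lists hold are counted but not reported here by name.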

Additional observations from a re-analysis of the deposited data

How the results depend on the processing

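Of 5401 alternatives over the 236 named genes, 4779 gave the same call, 614 lost the call, 8 gained it and 0 reversed. A reversal of peak time was counted only where both fits called the gene. Of the 211 called named genes, 153 kept their call whichever 1 library was left out. With depth as a term 91 of the 211 kept it, against 182 with the GC trend out and 162 without ZT8 and ZT22. Many named genes were chosen for a large amplitude or a small p in these same data, so these counts do not describe all genes. The count of 24 h rhythms, 3174, stayed within 2217 to 3320 when single libraries were left out and within 2612 to 3228 under other pseudocounts, filters, scaling, variance models and added 12 h terms, and was 2502 with intron share as a term. With depth as a term, chosen after seeing the data, it was 857, and 602 genes of at least 2-fold in place of 1110. The count of at least 2-fold was 556 with a pseudocount of 1 FPKM, 736 with a mean of at least 2 FPKM, and 856 to 1238 when single libraries were left out. Nuclear introns gave 1156 to 1789 genes when single libraries were left out, with 1156 without ZT8 and 1230 without ZT22. The GC trend taken out and the loss of ZT8 and ZT22, also chosen after seeing the data, gave 862 and 784 genes of at least 2-fold. The time point as a replicate block, a paired fit of wild type and nono-/-, gave 0 genes for the genotype difference, the same as without it; the 12 h component gave 0 genes by limma under every alternative run. The causes of these shifts were not tested. With 1 pool a time point over 1 day, day-to-day variation cannot be told apart from rhythm, low genes carry more counting error, and the share of genes called at 0.5 to 1 FPKM was 15.4%.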

Other observations

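Receptors and regulators of hepatocyte identity had a few wide rhythms among mostly shallow ones. Of 17 tested nuclear receptors of metabolism 6 were called (3 with depth as a term), against 27.9% of all tested genes. Beside Ppard, Esrra, a receptor that acts on mitochondrial genes, was 3.17-fold, peak ZT17.4, and Esr1, the estrogen receptor, was 2.42-fold, peak ZT19.99. Of 12 hepatocyte transcription factors 5 were called, and 1 with depth as a term. Hnf4a, a regulator of many hepatocyte genes, ran from 63.8 FPKM at ZT8 to 138 FPKM at ZT14 (median 97.9), 1.69-fold at ZT16.5 ± 0.742 h. Cebpb, a factor induced in fasting, peaked earlier at ZT10.6 ± 0.738 h, 2.34-fold (3.66-fold with the GC trend out). Esrra and Hnf4a did not pass with depth as a term (adjusted p = 0.115 to 0.154).

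Of 16 tested hormones and receptors 4 were called (25%, near the 27.9% of all tested genes), and 1 with depth as a term, and none of the 4 is a receptor. Beside Angptl8, Igfals, which carries insulin-like growth factors in blood, was 2.75-fold, peak ZT19.3, Inhbc, an activin subunit, was 2.64-fold, peak ZT18.2, and Serpina6, the carrier of glucocorticoids in blood, was 1.88-fold, peak ZT14.4. Tfrc, the transferrin receptor that takes up iron, ran from 5.13 FPKM at ZT6 to 33.3 FPKM at ZT16 (median 9.12), 4.33-fold at ZT17.4 ± 0.707 h (limma adjusted p = 0.00578), 2.84-fold with depth as a term, and was 1 of 2 iron genes called of 13 tested. Of 23 complement and coagulation genes 4 were called (17.4%), among them C9 (1.63-fold, peak ZT4.70) and F11 (1.56-fold, peak ZT6.76). Without ZT10, 4 iron genes and 9 complement and coagulation genes were called. Igfals, Serpina6, Tfrc and C9 did not pass with depth as a term (adjusted p = 0.0568 to 0.201).

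Of 30 tested splicing factors 6 were called (20%, and 3 without ZT18), against 27.9% of all tested genes. Of the 6, 5 peaked in ZT6 to 12, against 33.2% of all called genes, among them Srsf5 (2.10-fold, peak ZT7.43) and Hnrnpdl (1.84-fold, peak ZT8.79). With the GC trend out 12 of the 30 were called, against 32.5% of all tested genes, 4 in ZT6 to 12 and 7 in ZT18 to 24. Without ZT8 and ZT22 the count was 7, against 18.9%, and with depth as a term 2, against 7.55%. Both the times of the group and the order of the shares thus depended on the fit. Of 18 genes of mRNA turnover 5 were called (3 without ZT2, ZT6, ZT16, ZT18 or ZT22), 27.8% of them, and none by limma with depth as a term (5 at an unadjusted p under 0.05). Their called peaks lay 1 in ZT0 to 6, 2 in ZT6 to 12 and 2 in ZT12 to 18, among them Noct, the largest; with the GC trend out 6 were called, 4 of them in ZT12 to 18. Of 25 genes of the unfolded protein response 7 were called (28%), against 4 without ZT2, ZT18 or ZT22, 2 without ZT8 and ZT22 and 2 with depth as a term. Ern1, a sensor of that response, was 1.73-fold, peak ZT20.1 ± 0.632 h, adjusted p = 0.00306 by limma and also passed with depth as a term.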
